A study of Homo sapiens with 4 samples.

Results

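The genes of peptide processing for MHC class I considered here, TAP1, TAP2, TAPBP, TAPBPL, PSMB8, PSMB9, PSMB10, PSME1, ERAP1 and ERAP2, were followed in HT-29 cells with and without Myc-TRIM40. They were chosen by symbol, 10 of the 27685 genes in the deposited RNA-seq tables, and the estimated reads of their 31 RefSeq transcripts were summed per gene. HT-29 is a human colorectal adenocarcinoma line, and TRIM40 is a tripartite-motif protein that acts as an E3 ubiquitin ligase. Control cells were wild type (WT) and carried the control vector; the others stably overexpressed TRIM40 with a Myc tag at its N-terminus, and no cells received any other treatment. The methods describe viral transduction with puromycin selection and do not state whether a clone or a pool was used. Each condition had 2 libraries, 1 in each of 2 independent experiments, so p-values measure only the spread between these samples. In RNA of whole cultures, a change in every cell and a change in some cells cannot be told apart.

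MHC class I molecules show cytotoxic T cells peptides cut from a cell's own proteins. The proteasome cuts the proteins, the TAP1/TAP2 transporter moves the peptides into the endoplasmic reticulum, tapasin and its relative help load and select them, and the aminopeptidases ERAP1 and ERAP2 trim them to size. Interferon raises most of these genes, and under interferon PSMB8, PSMB9 and PSMB10 replace the constitutive catalytic subunits PSMB5, PSMB6 and PSMB7 to form the immunoproteasome. Intestinal epithelial cells use the same machinery and raise it during inflammation.

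The start regions of these genes are shown because interferon-activated factors act through short motifs near gene starts. RefSeq promoter windows (GRCh38.p14, 250 bases before the start to 50 bases after) were at hand for 10 of the 10 genes, 15 windows in all. The motifs searched, on both strands, were the core of the interferon-stimulated response element (ISRE), which is GAAA, any 2 bases and GAAA, and the gamma-activated site (GAS), which is TTC, any 3 bases and GAA. The ISRE core was found in 8 of the 15 windows and in 8 genes, and in 3.57% of all 35116 windows. GAS was found in 2 of the 15 windows, at the second start of TAP1 and at the downstream start of PSMB8, and in 7.66% of all windows. TAPBPL and PSMB9 had no ISRE core in their windows. A match is a run of letters and was not tested as a binding site. The 30 bases around each ISRE core match are printed 5′ to 3′ on the strand of the gene, with the match in capitals; in TAP1 and TAPBP 2 matches overlap and are capitalised as 1 run.
TAP1 (chr6:32853816-32853845, minus): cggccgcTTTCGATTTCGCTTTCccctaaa
TAP2 (chr6:32838778-32838807, minus): ctggggaagcGAAAGCGAAAgctgcccgag
TAPBP (chr6:33314076-33314105, minus): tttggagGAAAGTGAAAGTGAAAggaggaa
PSMB8 (chr6:32844032-32844061, minus): gatctgtggcTTTCGCTTTCacttcctcct
PSMB10 (chr16:67936852-67936881, minus): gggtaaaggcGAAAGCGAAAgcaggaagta
PSME1 (chr14:24136189-24136218, plus): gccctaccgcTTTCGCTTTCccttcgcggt
ERAP1 (chr5:96807924-96807953, minus): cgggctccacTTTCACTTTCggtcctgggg
ERAP2 (chr5:96876460-96876489, plus): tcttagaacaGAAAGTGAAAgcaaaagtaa

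With the start base counted as 0, the matches began at -134 in TAP1, -58 in TAP2, -30 in ERAP2, -21 in PSMB10, -20 in TAPBP, -4 in PSMB8, 2 in ERAP1 and 5 in PSME1. TAP1 and PSMB9 are read in opposite directions from starts 488 bases apart, so the region before TAP1 is also the region before PSMB9. The 250 bases before the TAP1 start (GRCh38.p14, chr6:32853705-32853954, minus strand) are the part of that region next to TAP1. The PSMB9 window begins at chr6:32853942, so it holds only their far end and not the matches. They are printed with the ISRE core matches in capitals.
TAP1: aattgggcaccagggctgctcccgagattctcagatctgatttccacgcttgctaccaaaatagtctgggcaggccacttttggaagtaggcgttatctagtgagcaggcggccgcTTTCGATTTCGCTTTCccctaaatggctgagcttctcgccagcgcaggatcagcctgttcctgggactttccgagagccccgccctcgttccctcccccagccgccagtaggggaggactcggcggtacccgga

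The estimated reads of a library summed to between 60954602 and 67424698. TRIM40 itself had 0 reads in both control libraries and 272646 and 110665 reads in the Myc-TRIM40 libraries, as the labels say. Of 12 colon epithelial markers, 11 were at 1 FPKM or more in each library (CDX1 was not). The 8 leukocyte markers summed to between 14.1 and 22.6 FPKM, against 7237 to 10021 FPKM for the epithelial markers, with PTPRC, ITGB2, CD3E and SPI1 among the 5 below 1 FPKM in each library and CD14, CD68 and CORO1A at 1 FPKM or more in each; their part in the results was not tested. In experiment 2, unlike experiment 1, the ratio of Myc-TRIM40 to control reads moved with transcript length over all 14868 genes tested. Its median on the log2 scale was -0.52 for the 1894 genes under 1200 bases and 0.47 for the 2918 genes of 5000 bases or more, and the same medians were -0.05 and 0.03 in experiment 1. FPKM (reads scaled by transcript length and library total) gives levels below, and folds within an experiment are of TMM-normalised reads with 95% exact intervals that cover counting error only.

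In experiment 1 the levels of all 10 genes were higher with Myc-TRIM40 than with the control vector, from 1.20-fold for PSMB10 to 11.6-fold for PSMB9 in normalised reads. In experiment 2 normalised reads were higher for 6 genes and lower for 4, from 0.595-fold for PSMB10 to 4.45-fold for ERAP1. All 10 passed the filter on low counts, and no gene of the 10 passed edgeR's quasi-likelihood test with the experiment as a block at an adjusted p under 0.05 (0 of 10; 0.0404% of the 14868 genes tested were called higher). At an unadjusted p under 0.05, TAP1, TAP2, PSMB9 and ERAP1 were higher (4 of 10, against 3.41% of the genes tested) and 0 were lower. DESeq2 with the same block called 0 of the 10 at an adjusted p under 0.05, against 0.286% of its 15406 genes called higher, and 5 were higher at an unadjusted p under 0.05 (PSMB8 besides the 4 above), against 2.32% of those genes. The median log2 fold change of the 10 genes in the edgeR fit was 0.71, against 0.04 over all genes tested. In experiment 1 alone the median log2 ratio was 0.84, against 0.00 over all genes (10 of 10 above 0), and in experiment 2 alone it was 0.14, against 0.03 (6 of 10 above 0). With 1 library per condition in an experiment, no difference between the experiments could be tested.

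**Figure D1:**
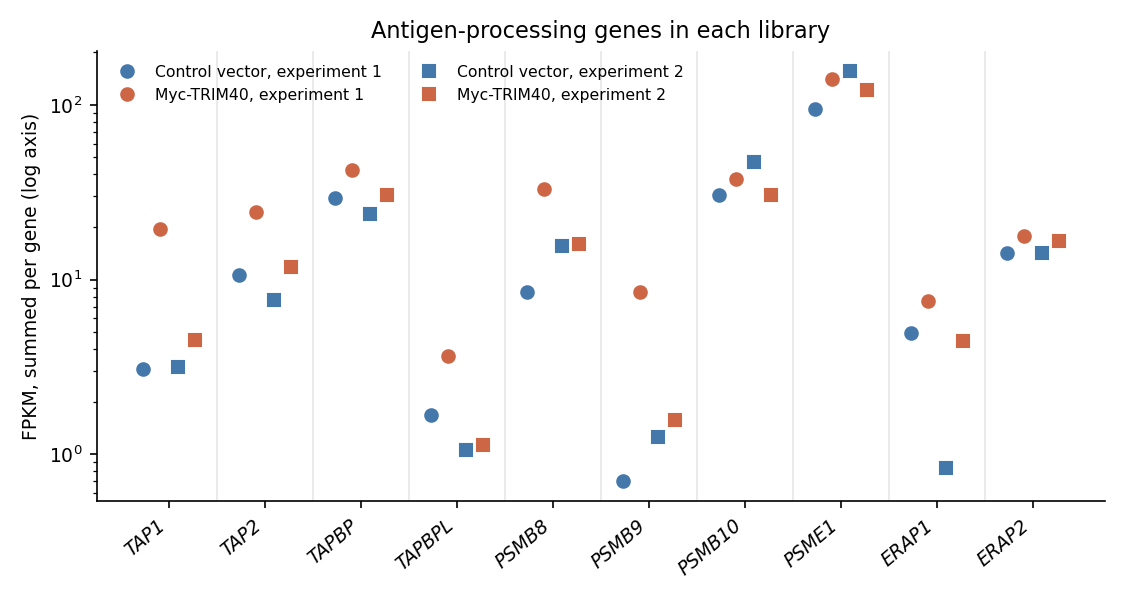
FPKM on a log axis of each gene (x axis) in each library, with the control vector in blue, Myc-TRIM40 in orange, experiment 1 as circles and experiment 2 as squares. Each point is 1 library; TAP1 and PSMB9 were highest with Myc-TRIM40 in experiment 1, at 19.4 and 8.54 FPKM, and ERAP1 was lowest in the second control library, at 0.838 FPKM.

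Both subunits of the peptide transporter were higher with Myc-TRIM40 in both experiments. TAP1 (Entrez gene 6890; hg19 chr6:32812986-32821748) was at 3.07 FPKM with the control vector and 19.4 FPKM with Myc-TRIM40 in experiment 1, and at 3.18 and 4.48 FPKM in experiment 2. The 2 control libraries lay close together, and both Myc-TRIM40 libraries lay above them by very different amounts. Behind these levels stood 567 and 3542 reads, then 651 and 850. The fold was 6.08 (interval 5.57 to 6.66) in experiment 1, where 99.1% of genes tested had a lower ratio, and 1.29 (1.17 to 1.44) in experiment 2, where 74.9% did. Across both experiments the log2 fold change of TAP1 was 1.49 (SE 0.47, n = 2 per condition; adjusted p = 0.888, edgeR), and DESeq2 gave an adjusted p of 0.0995.

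TAP2 (Entrez gene 6891; hg19 chr6:32789610-32806600), which forms the heterodimer with TAP1, was at 10.6 and 24.3 FPKM in experiment 1 and at 7.63 and 11.8 FPKM in experiment 2. Both Myc-TRIM40 libraries were above both control libraries. The fold was 2.27 (2.18 to 2.36) in experiment 1 and 1.46 (1.40 to 1.53) in experiment 2. The log2 fold change over both was 0.87 (SE 0.24, adjusted p = 0.771, edgeR). In experiment 2 the log2 ratio of TAP2 went from 0.55 to 0.14 once the median of genes of like length was taken out (a step chosen after seeing the data). TAP1 made up 22.4% of the summed FPKM of the pair with the control vector and 44.4% with Myc-TRIM40 in experiment 1. In experiment 2 the share was 29.4% with the control vector and 27.5% with Myc-TRIM40, a difference in the opposite direction.

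In normalised reads the folds of the loading factors lay below those of the transporter in each experiment. The fold of TAPBPL in experiment 1, at 2.17, was close to that of TAP2, at 2.27. With the median of genes of like length taken out, TAPBPL lay above TAP2 in experiment 2, at log2 ratios of 0.22 and 0.14. Tapasin, the product of TAPBP (Entrez gene 6892; hg19 chr6:33267472-33282164), holds the class I molecule at the transporter. TAPBP was at 29.4 and 42.3 FPKM in experiment 1 and at 23.8 and 30.4 FPKM in experiment 2. The groups did not overlap, and the Myc-TRIM40 library of experiment 2 stood only just above the control library of experiment 1. Its folds were 1.41 (1.37 to 1.45) and 1.17 (1.13 to 1.21), with a log2 fold change of 0.36 (SE 0.22; adjusted p = 0.888, edgeR).

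TAPBPL (Entrez gene 55080; hg19 chr12:6560840-6571488), which encodes the tapasin-related peptide editor TAPBPR, was among the lowest of the 10 genes. It was at 1.68 and 3.66 FPKM in experiment 1 and at 1.06 and 1.14 FPKM in experiment 2, and the groups overlapped. Its fold was 2.17 (1.83 to 2.59) in experiment 1. In experiment 2 the 142 and 141 reads gave 0.984 (0.774 to 1.25), an interval that spans 1, although FPKM was higher with Myc-TRIM40. TAPBPL overlaps VAMP1 by 85 bases and CD27 by 45 bases.

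**Figure D2:**
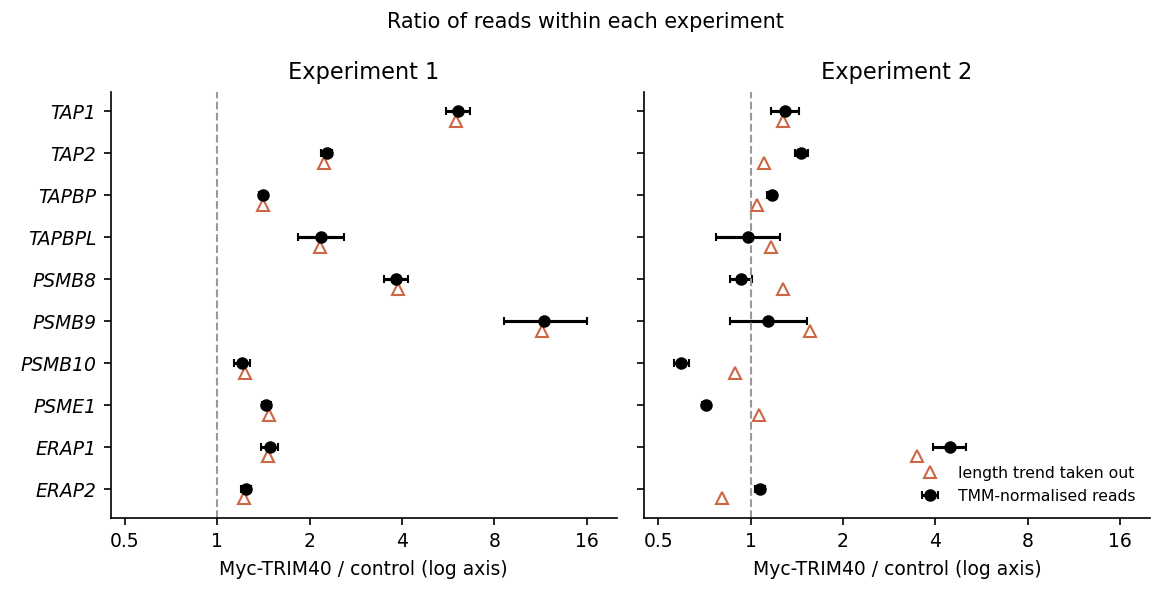
Ratio of Myc-TRIM40 to control reads (x axis, log scale) for each gene (y axis) in experiment 1 and experiment 2; black points are TMM-normalised reads with 95% counting intervals, and open triangles are the same ratio after the median of genes of like transcript length was taken out. In experiment 1 all 10 points lie right of 1, up to 11.6 for PSMB9; in experiment 2 they run from 0.595 for PSMB10 to 4.45 for ERAP1.

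In the immunoproteasome subunits, as in TAP1, TAPBPL, PSME1 and ERAP1, the folds of the experiments lay far apart. PSMB9 (Entrez gene 5698; hg19 chr6:32821938-32827628) encodes the subunit that takes the place of PSMB6. It was at 0.705 and 8.54 FPKM in experiment 1 and at 1.26 and 1.56 FPKM in experiment 2, from 47, 561, 92 and 106 reads. Both Myc-TRIM40 libraries were above both controls, and 1 library stood far above the other 3. The fold of PSMB9 was 11.6 (8.62 to 16.0) in experiment 1, the largest of the 10 genes there, and 1.14 (0.855 to 1.53) in experiment 2, an interval that spans 1. Its log2 fold change over both was 1.86 (SE 0.71; adjusted p = 0.888, edgeR).

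PSMB8 (Entrez gene 5696; hg19 chr6:32808494-32812712), which takes the place of PSMB5, was at 8.50 and 33.0 FPKM in experiment 1 and at 15.6 and 16.0 FPKM in experiment 2. The control library of experiment 2 had 1.99 times the normalised reads of the control library of experiment 1. The fold was 3.82 (3.49 to 4.18) in experiment 1. In experiment 2 it was 0.932 (0.860 to 1.01) in normalised reads, while on FPKM + 1 it was 1.02, so the direction in experiment 2 turned with the scale. PSMB8 and TAP1 each overlap the antisense gene PSMB8-AS1, which had 25 reads against 175 in experiment 1 and 50 against 45 in experiment 2. The log2 fold change over both was 0.91 (SE 0.43; adjusted p = 0.888, edgeR).

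PSMB10 (Entrez gene 5699; hg19 chr16:67968407-67970780), which takes the place of PSMB7, lies outside the MHC region. It was at 30.6 and 37.8 FPKM in experiment 1 and at 47.1 and 30.6 FPKM in experiment 2. The control library of experiment 2 was the highest of the 4, and the groups overlapped. The folds went opposite ways, 1.20 (1.13 to 1.28) and 0.595 (0.563 to 0.630), and the log2 fold change over both was -0.24 (SE 0.28; adjusted p = 0.901, edgeR). PSMB10 is 1006 bases long, within the class of short transcripts whose median log2 ratio was -0.52 in experiment 2; with the median of genes of like length taken out (a step chosen after seeing the data), its log2 ratio there went from -0.75 to -0.17.

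Set against the constitutive subunits, which compete with them for the same places in the proteasome, PSMB8 and PSMB9 took a larger share of the FPKM with Myc-TRIM40 in both experiments. PSMB8 was 9.55% of PSMB8 plus PSMB5 with the control vector and 29.7% with Myc-TRIM40 in experiment 1, and 12.3% and 15.5% in experiment 2. PSMB9 was 0.610% and 6.86% of PSMB9 plus PSMB6 in experiment 1, and 0.725% and 1.29% in experiment 2. PSMB10 was 16.8% and 19.9% of PSMB10 plus PSMB7 in experiment 1, and 19.98% and 17.0% in experiment 2. For PSMB8 and PSMB9 both Myc-TRIM40 shares thus lay above both control shares, and for PSMB10 they overlapped. The shares of TAP1 with TAP2, of PSME1 with PSME2 and of ERAP1 with ERAP2 also overlapped between the conditions. ERAP1 was 25.9% (control vector) and 29.7% (Myc-TRIM40) of its pair in experiment 1, and 5.57% and 21.0% in experiment 2. No such share was computed for pairs of genes outside the pathway. The constitutive genes themselves had log2 ratios of -0.11, -0.02 and -0.03 (PSMB5, PSMB6 and PSMB7) in experiment 1 and of -0.59, -0.66 and -0.46 in experiment 2. The PSMB8 fold in experiment 2 was 0.932 in normalised reads, and the PSMB9 interval (0.855 to 1.53) spanned 1. On FPKM, the scale of the shares, PSMB8 was at 15.6 and 16.0 and PSMB9 at 1.26 and 1.56 in experiment 2. PSMB5 was at 111.3 and 87.3 FPKM there, and PSMB6 at 172.2 and 119.2 FPKM. The part of each gene in the larger shares was not tested. All 6 genes are short, between 852 and 1204 bases, and genes under 1200 bases had a median log2 ratio of -0.52 in experiment 2. Even in the library with the highest share, PSMB5 transcripts outnumbered those of PSMB8 per length, at 78.0 against 33.0 FPKM.

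**Figure D3:**
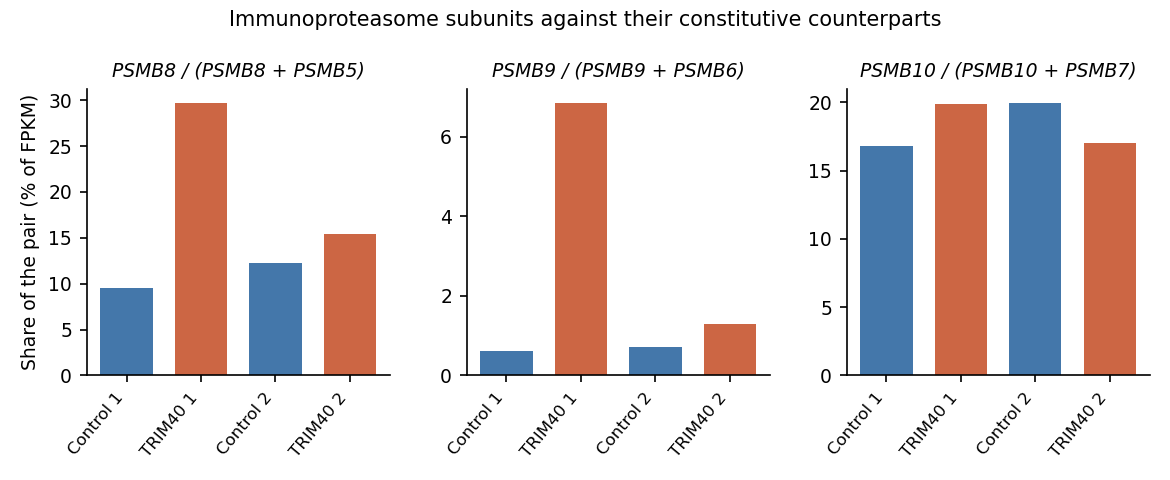
Share (y axis, percent of the summed FPKM of a pair, each panel on its own scale from 0) of each immunoproteasome subunit in its pair with the constitutive subunit, for the 4 libraries on the x axis, control vector in blue and Myc-TRIM40 in orange, with experiment numbers; each bar is 1 library. PSMB8 and PSMB9 had their largest shares, 29.7% and 6.86%, with Myc-TRIM40 in experiment 1, and PSMB10 stayed between 16.8% and 19.98%.

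PSME1 (Entrez gene 5720; hg19 chr14:24605367-24608176) encodes the alpha subunit of PA28, a cap that opens the proteasome and is likewise raised by interferon. It was the most abundant of the 10 genes, at 94.2 and 139.6 FPKM in experiment 1 and at 155.7 and 121.2 FPKM in experiment 2. The groups overlapped, and the highest and the lowest library were both controls. Its folds were 1.44 (1.40 to 1.49) and 0.714 (0.693 to 0.735), and the log2 fold change over both was 0.02 (SE 0.28; adjusted p = 0.996, edgeR), below 0 with DESeq2 (-0.0038) and without the block (-0.03). With the trend on length taken out, its log2 ratio in experiment 2 went from -0.49 to 0.09. Its partner PSME2 had log2 ratios of 0.77 and -0.43, so that PSME1 stayed between 44.9% and 51.0% of the pair.

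The trimming aminopeptidases ERAP1 and ERAP2 lie side by side on chromosome 5. ERAP2 (Entrez gene 64167; hg19 chr5:96211643-96255420) was at 14.1 and 17.8 FPKM in experiment 1 and at 14.2 and 16.7 FPKM in experiment 2. The control libraries were nearly equal and both Myc-TRIM40 libraries lay above them, by a small step. The folds of ERAP2 were 1.24 (1.20 to 1.29) and 1.07 (1.03 to 1.11), and its log2 fold change was 0.21 (SE 0.22; adjusted p = 0.897, edgeR). With the trend on length taken out, the log2 ratio in experiment 2 went from 0.10 to -0.30.

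ERAP1 (Entrez gene 51752; hg19 chr5:96096514-96149848) was at 4.92 and 7.51 FPKM in experiment 1 and at 0.838 and 4.43 FPKM in experiment 2. The control library of experiment 2 was low, at 0.194 times the normalised reads of the other control library, and the groups overlapped. The folds of ERAP1 were 1.48 (1.39 to 1.58) and 4.45 (3.94 to 5.04), with a log2 fold change of 1.35 (SE 0.36; adjusted p = 0.695, edgeR; 0.0672, DESeq2). Among the 10 genes ERAP1 was the only one with a larger fold in experiment 2 than in experiment 1. The ERAP1 transcript NM_001040458 was assigned 1217 reads (control vector) and 1926 reads (Myc-TRIM40) in experiment 1, but 2 reads and 1319 reads in experiment 2. In experiment 2 it thus held 0.615% of the ERAP1 reads with the control vector and 90.3% with Myc-TRIM40. Without it the ERAP1 reads were 385 and 515, then 323 and 141 for the second pair (a sum chosen after seeing the data). The folds were then 1.302 and 0.433. Leaving out a transcript with such unlike shares fixes the turn of direction in experiment 2, so this sum cannot check the gene total. ERAP1 also overlaps CAST by 13872 bases, and CAST had 5807, 6852, 6251 and 7919 reads in the same order of libraries. The library kit marks strand, and whether the counting used it is not given in the sources used here, so reads of the overlapping genes may not be told apart.

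The assignment of reads to transcripts also moved in other genes. TAP2 was read as NM_000544 for 83.9% and 73.8% of its reads in experiment 1, and for 11.1% (control vector) and 94.98% (Myc-TRIM40) in experiment 2. The longer form NM_001290043 took 85.7% of TAP2 reads in that control library and 5.02% in the Myc-TRIM40 library. Both TAP2 forms are of nearly equal length, at 5679 and 5732 bases, so the gene total hardly depends on the split. TAPBPL was assigned to NM_018009 for 87.1%, 56.1%, 0% and 48.2% of its reads. PSMB8 was steadier, with NM_148919 at between 79.8% and 86.9% in the 4 libraries. By the hg19 positions NM_148919 is the form of PSMB8 with the downstream start; the GRCh38.p14 windows were not matched to transcripts. PSMB9 and PSMB10 have 1 transcript each in the tables. TAP1 was assigned to NM_000593 alone, but for 135 of the 3542 reads of 1 library (Myc-TRIM40, experiment 1).

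**Figure D4:**
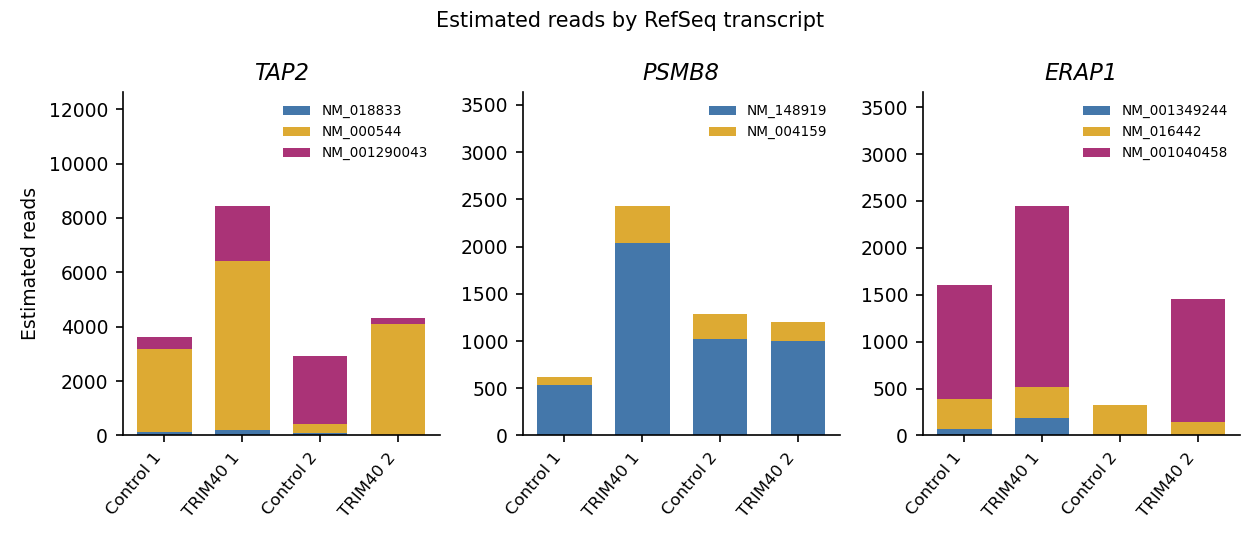
Estimated reads (y axis) of TAP2, PSMB8 and ERAP1, stacked by RefSeq transcript (colours named in each panel), in the 4 libraries (x axis, with the experiment number); each bar is 1 library. The purple ERAP1 transcript, NM_001040458, has 2 reads in the control library of experiment 2 and between 1217 and 1926 in the others, and the TAP2 forms trade places in that same library.

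Both Myc-TRIM40 libraries lay above both control libraries in FPKM in 6 of the 10 genes, namely TAP1, TAP2, TAPBP, PSMB8, PSMB9 and ERAP2, against 15.2% of the genes tested. In normalised reads there were 5, without PSMB8, against 11% of the genes tested. At 1.5-fold on FPKM + 1, the form of ratio that damps low genes, TAP1, TAP2, TAPBPL, PSMB8 and PSMB9 were higher in experiment 1 (5 of 10, against 2.78% of the genes tested). In experiment 2 only ERAP1 was higher (1 of 10, against 8.54%) and only PSMB10 was lower (1 of 10, against 2.88%). None of the 10 passed 1.5-fold in both experiments, as 0.457% of the genes tested did. On TPM + 1, where each library sums to the same total, TAP1, TAP2 and ERAP1 did (3 of 10, against 1.1%). In experiment 2 the median of all genes lay at 0.27 on the log2 scale of TPM + 1 and at 0.08 on that of FPKM + 1, and these shifts of all genes are included in the counts.

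**Figure D5:**
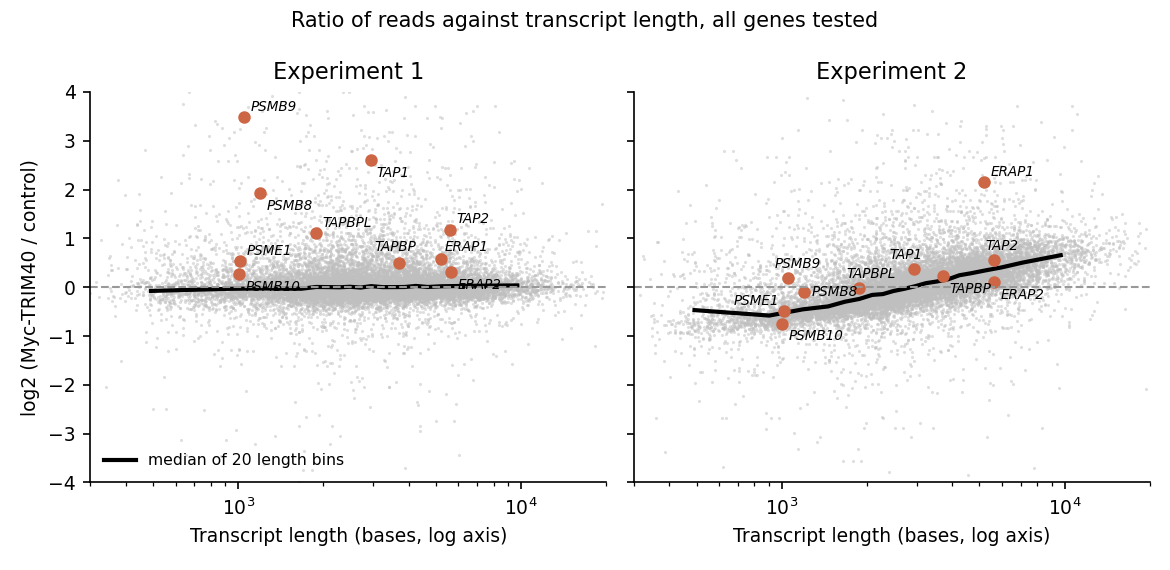
Log2 ratio of Myc-TRIM40 to control reads (y axis, TMM-normalised) against transcript length in bases (x axis, log scale) in each experiment, for the 14868 genes tested (grey; those beyond 4 in either direction fall outside the axis), the median of 20 length bins (black line) and the 10 genes (orange). The line is flat in experiment 1 and climbs in experiment 2, from a median of -0.52 under 1200 bases to 0.47 at 5000 bases or more.

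The short transcripts of PSMB8, PSMB9, PSMB10 and PSME1, of 1006 to 1194 bases, lie on the falling side of the trend in experiment 2, and the long ones of TAP2, ERAP1 and ERAP2, of 5202 to 5644 bases, on the rising side. With the median of genes of like length taken out, the log2 ratios in experiment 2 were 0.35 for TAP1, 0.14 for TAP2, 0.07 for TAPBP, 0.22 for TAPBPL, 0.35 for PSMB8 and 0.64 for PSMB9. They were -0.17 for PSMB10, 0.09 for PSME1, 1.80 for ERAP1 and -0.30 for ERAP2. On that scale 8 of the 10 lay above 0, with a median of 0.18, and in experiment 1 all 10 did, with a median of 0.84. Over all genes tested 49.97% lay above 0 in each experiment, with a median of 0, which taking out the bin medians fixes. The part of the length trend in the results was not tested further.

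The other genes of the pathway were read as lists, 42 genes in all, of which 42 were tested and 0 were called in either direction by edgeR. DESeq2 called 2 higher, NLRC5 among them, and 0 lower, against 0.286% of its genes called higher. At an unadjusted p under 0.05 in edgeR, 4 of 42 were higher, HLA-B, LNPEP and NLRC5 among them, against 3.41% of the genes tested, and 0 were lower. The class I heavy chains and the light chain B2M, which carry the peptides, had a median log2 ratio of 1.38 in experiment 1 (6 of 6 above 0) and of -0.11 in experiment 2 (1 of 6 above 0). HLA-B was at 12.5 FPKM (control vector) and 72.0 FPKM (Myc-TRIM40) in experiment 1, and at 15.3 and 18.5 FPKM in experiment 2, although reads may be shared between the near-identical HLA genes. The 4 chaperones of class I folding (CALR, CANX, PDIA3 and HSPA5) had medians of 0.13 and -0.21. The 11 other subunits of the 20S core had a median of -0.05 in experiment 1 and of -0.64 in experiment 2, where 0 of 11 were above 0. The 7 genes of PA28 and proteasome assembly had medians of -0.02 and -0.63, and the 6 other peptidases of -0.03 and 0.03. Over all genes tested the medians were 0.00 and 0.03, with 50.2% and 52.1% above 0. In experiment 2 the median was -0.52 for genes under 1200 bases and -0.24 for those of 1200 to 2500 bases. Most of the class I, 20S core, PA28 and assembly genes fall in those length classes, and the part of length was not tested. Among the peptidases LNPEP, the neighbour of ERAP2 on chromosome 5, had 840 reads against 1043 in experiment 1 and 152 against 575 in experiment 2, and like ERAP1 was lowest in the second control library.

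The 5 regulators of the pathway had median log2 ratios of 0.89 in experiment 1 (4 of 5 above 0) and 0.31 in experiment 2 (5 of 5 above 0). NLRC5, the transactivator of class I genes, TAP1 and PSMB9, was low throughout, with 93 reads against 1188 in experiment 1 and 32 against 129 in experiment 2. Its log2 fold change was 2.90 (SE 0.41; adjusted p = 0.0867, edgeR; 1.9e-06, DESeq2), so that DESeq2 called it and edgeR did not, and both Myc-TRIM40 libraries were above both controls. IRF1, which binds the ISRE, had log2 ratios of 0.89 and 0.04.

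By the distance over the 2 within-experiment log2 ratios of FPKM + 1, among 11744 genes with a mean of at least 1 FPKM, the 5 genes most like TAP1 (2.33 and 0.39) were DHRS2, IRF7, PLSCR1, HLA-B and SLC15A3. DHRS2, the nearest, had ratios of 2.32 and 0.36, and IRF7 had 2.22 and 0.38. The 5 most like PSMB9 (2.48 and 0.18) were HLA-B, PAQR4, SLC15A3, ATF3 and DHRS2, with HLA-B at 2.44 and 0.26. The likeness is over 2 points from the same 4 libraries.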

How the data were processed

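RNA was measured by RNA-seq (TruSeq Stranded mRNA libraries, NovaSeq) in 4 HT-29 libraries, 2 with a control vector and 2 with Myc-TRIM40. The submitters' processing notes name HISAT2 2.1.0, StringTie 1.3.4d and hg19; their roles and settings are not given in the sources used here. The authors deposited a whole-number estimated count of reads per RefSeq transcript, not normalized. FPKM, the same count scaled by length and library total, and for experiment 2 TPM, which has a fixed sum per library, were deposited by the authors too. Other deposited values were positions and transcript lengths. The 63714 transcripts were summed to 27685 genes, and TPM was computed here from FPKM for both experiments. The 10 members, the lists and the motifs were chosen with earlier results of these data known; every member is named, and of a list the catalytic counterparts, PSME2 and genes called by edgeR or DESeq2. HLA-B, LNPEP and IRF1 fall outside this rule and were added after their values were seen. For TAP1 and PSMB9 the 5 nearest genes are named too. Values of 2 genes of the lists are left out of the text regardless of the rule on which genes are named. Most of the other list genes appear only within medians and counts.

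The main test was edgeR 4.0.16 in R 4.3.3 (glmQLFit, glmQLFTest, TMM, filterByExpr, Benjamini-Hochberg over the 14868 genes kept), with the experiment as a block. The 2 conditions with the same replicate number were deposited in 1 file, and deviations of same-numbered libraries from their condition means correlated at 0.45. The fit had 1 residual degree of freedom, a common dispersion of 0.0484 and median prior degrees of freedom of 7.44; an exact permutation test of 2 against 2 libraries cannot go below p = 0.333 and was not used. Standard errors came from the fold change and the F statistic. A gene's length was the read-weighted mean of its transcripts, and the length trend was taken out in 20 bins. Counts were also simulated for Myc-TRIM40 against control (14829 genes tested). In them edgeR with the block found 100 of 100 genes changed 4-fold and 23 of 100 changed 2-fold, with 4 false calls. The simulated folds were the same in both experiments, and only genes with more than 100 expected reads were changed. The folds of PSMB9 were 11.6 and 1.14, so these counts do not give the power for genes whose folds differ between experiments. DESeq2 1.42.0, limma 3.58.1, upper-quartile scaling, no filter, no block, other pseudocounts and thresholds, TPM and each experiment alone were tried. Positions of genes are hg19 and those of sequences are RefSeq GRCh38.p14; no position was converted. Python 3.11.15, pandas 2.3.3 and matplotlib 3.10.9 were used for the rest. The precision is limited by the number of experiments, 2.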

Additional observations from a re-analysis of the deposited data

How the results depend on the processing

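No member was called in either direction in any of the 6 fits across genes. Over all genes, 6 were called higher and 3 lower with the replicate block; without the replicate block 0 and 0 were called (edgeR; 128 and 25 at an unadjusted p under 0.05), with DESeq2 44 and 9, without a filter 0 and 0 (edgeR; 343 and 104 unadjusted), and with limma on log2(FPKM + 1) 3 and 0 (134 lower unadjusted); the cause was not tested. Members with an unadjusted p under 0.05 were 4 with the block, 2 without it and 5 with DESeq2. The members' median log2 fold change was between 0.63 and 0.84 over these fits, and between 0.14 (without experiment 1) and 0.84 (without experiment 2). The count of members at least 1.5-fold higher in both experiments was 0; it was 2 with a pseudocount of 0.1 (TAP2 and ERAP1), 3 on TPM and between 1 and 5 when only 1 experiment was counted, and 0 with a 2-fold threshold, a minimum of 1 FPKM or centred ratios. Without experiment 1, the signs of TAPBPL, PSMB8 and PSME1 turned, and without experiment 2 that of PSMB10. The mean log2 ratio of ERAP1 was 1.36, and -0.41 without NM_001040458, a value that follows how reads were assigned to transcripts. The counting intervals of TAPBPL, PSMB8 and PSMB9 in experiment 2 span 1. They cover counting error only, and that of PSMB8 was narrow, from 0.860 to 1.01. The median of the members' mean ratios was 0.70, and 0.66 with the length trend taken out.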
